A study of Mus musculus with 24 samples.

Results

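10 genes of the liver sinusoidal endothelium were followed in whole liver: the scavenger and hyaluronan receptors Stab1, Stab2 and Lyve1, the lectin Clec4g, the Fc receptor Fcgr2b, Oit3, the vascular receptors Kdr, Eng and Pecam1, and the secreted ligand Bmp2. They were taken by gene name from the 43629 gene identifiers listed in the libraries, and each name matched 1 entry. All 10 had a mean of at least 1 TPM (a level per transcript length that sums to 1000000 in a library) and were among the 12261 genes tested. Livers came from old mice (about 19 months) and young mice (about 4 months), all wild type on the inbred C57BL/6 background and with no treatment named. Zeitgeber time (ZT) counts the hours since the lights came on, and livers were taken every 4 h from ZT2 to ZT22. Each of the 12 combinations of age and time had 2 replicate libraries, 24 in all. Collection ran over more than 1 day, but the labels do not say which day or animal a replicate number stands for, nor the sex. The p-values therefore measure only how far these libraries spread, which may be technical.

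Sinusoidal endothelial cells line the small vessels between plates of hepatocytes and have open pores and no organised basement membrane. They take up hyaluronan, collagen fragments, modified lipoproteins and small immune complexes from the blood through scavenger, lectin and Fc receptors. They also send Wnt and BMP ligands to the neighbouring hepatocytes, of which BMP2 and BMP6 control hepcidin and so iron uptake. In ageing and fibrotic liver these cells are known for losing pores and taking on features of ordinary capillaries, which is called capillarisation.

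The libraries held the equivalent of 8.70 to 12.3 M reads of 50 bases in old liver and 9.68 to 13.7 M in young liver. Replicate pairs correlated at 0.940 to 0.970 across genes, and no libraries were identical. Old ZT14 replicate 1 stood apart with 3.42% of TPM from the mitochondrial genome. Young ZT18 replicate 2 stood apart with 3037 scaled TPM of pancreatic acinar genes, against at most 11.1 in the other libraries, where scaled TPM are TPM brought to a common scale across libraries. For the labelled tissue, the 9 listed hepatocyte genes summed to 92450 to 119700 scaled TPM in old libraries and 88300 to 118400 in young libraries. In the test of age described below 0 of these 9 passed, against 1.64% of all genes tested.

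Old and young liver held sinusoidal endothelial mRNA at overlapping levels. The summed level of the 10 genes ran from 173 to 235 scaled TPM in old libraries (median 204) and from 179 to 248 in young libraries (median 209). Clec4g and Fcgr2b, with means of 90.1 and 31.9, weigh most in this sum, and Lyve1, at 5.18, weighs least. Lyve1 stood lowest against young liver, at 0.633-fold by the fit, and missed the threshold in the main model with a limma adjusted p of 0.0649. It passed in some alternatives given below, among them the replicate number as a block (limma adjusted p = 0.00765). Tests were linear models fitted across all genes with limma on log2(scaled TPM + 0.5), and a gene was called at an adjusted p under 0.05. In the main model none of the 10 genes passed the test of age over the day, against 1.64% of all genes tested. An unadjusted p under 0.05 was found for 1 of 10, against 11.6% of all genes tested. The median log2 difference (old minus young) was -0.04 for the 10 genes and -0.01 for all genes tested. Apart from Lyve1, the 95% confidence intervals of the other 9 genes lay between -0.59 and 0.39 on the log2 scale. In bulk liver, fewer cells of a type and less RNA per cell cannot be told apart.

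**Figure D1:**
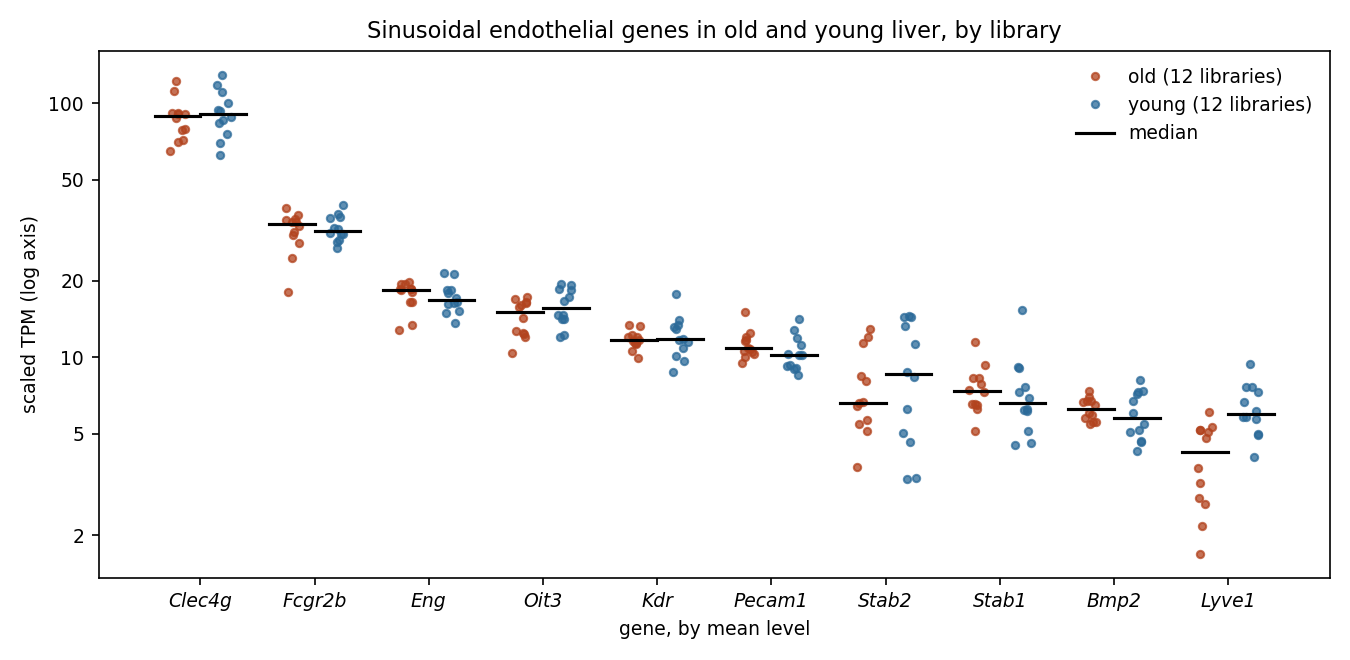
Level of each gene in every library (scaled TPM, log axis), old libraries left of young ones, with a line at the median of 12 libraries. For Lyve1, 11 of the 12 old libraries lie under the young median, more than for any other gene shown.

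Clec4g, a C-type lectin also called LSECtin that binds glycans on pathogens and on T cells, was the most abundant of the set. It lies on chromosome 8 from 3707064 to 3720651 in GRCm38, on the minus strand. It ran from 64.7 to 122.0 scaled TPM in old libraries (median 89.1) and from 62.6 to 129.5 in young libraries (median 91.0). The ages overlapped over nearly their whole range, with means of 87.6 ± 16.6 in old and 92.7 ± 19.6 in young (SD, n = 12 each). Old minus young was -0.07 on the log2 scale, with a standard error of 0.11 and a 95% confidence interval from -0.30 to 0.16, and the limma adjusted p was 0.896.

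Fcgr2b encodes the inhibitory Fc receptor through which sinusoidal cells clear small immune complexes (chromosome 1, 170958617 to 170976547, minus strand). It stood second, at 18.1 to 38.7 scaled TPM in old libraries (median 33.5) and 27.0 to 39.9 in young libraries (median 31.5). The lowest value, 18.1, was in old ZT14 replicate 1, the library with little mitochondrial RNA. The means of 31.5 ± 5.66 in old and 32.3 ± 3.78 in young (SD, n = 12 each) differed by -0.05 on the log2 scale (limma adjusted p = 0.922). Fcgr2b and Fcgr3 have near-identical extracellular exons, so how reads of 50 bases were shared between them is uncertain. Of the activating receptors, Fcgr3 and Fcgr4 had higher means in old liver and Fcgr1 a slightly lower one, and none passed the test. Fcgr3 averaged 14.9 ± 3.83 scaled TPM in old and 11.4 ± 1.93 in young (limma adjusted p = 0.102). Fcgr4 averaged 13.0 ± 8.59 in old and 7.58 ± 1.33 in young (limma adjusted p = 0.0555), and Fcgr1 2.64 ± 1.498 in old and 2.70 ± 0.720 in young (limma adjusted p = 0.882).

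Lyve1, a hyaluronan receptor of sinusoidal and lymphatic endothelium and of some tissue macrophages, was the least abundant of the 10 genes. It lies on chromosome 7 from 110850607 to 110862953, on the minus strand. Its level ran from 1.69 to 6.09 scaled TPM in old libraries (median 4.24) and from 4.07 to 9.41 in young libraries (median 6.00). Of the 12 old libraries, 6 lay under the lowest young library. The mean was 3.99 ± 1.46 in old and 6.36 ± 1.47 in young (SD, n = 12 each). The log2 difference was -0.66 with a standard error of 0.17 and a 95% confidence interval from -1.02 to -0.30 (limma unadjusted p = 0.0013, adjusted p = 0.0649).

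By time of day, Lyve1 had a lower mean in old liver at all 6 times, and no single time passed the test. At ZT2 it was at 3.67 and 1.69 scaled TPM in old, against 6.70 and 4.95 in young. At ZT6 the old libraries held 3.20 and 2.66, against 5.81 and 6.17 in young. At ZT22 the values were 5.34 and 2.79 in old, against 7.33 and 5.84 in young. At these 3 of 6 times both old libraries lay below both young ones, as did 8.2% of all genes tested at 3 or more times. At ZT10 (5.11 and 5.20 in old, 7.68 and 4.07 in young) and ZT14 (4.80 and 6.09 in old, 7.65 and 5.72 in young) the ages overlapped. At ZT18 they overlapped too, with 5.17 and 2.18 in old, against 9.41 and 4.99 in young, but the log2 difference of -0.92 was as large as at ZT6 (-0.92). The F test of whether the age difference varied over the times gave a limma unadjusted p of 0.520 and an adjusted p of 1.

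The Lyve1 values rested on few reads, the equivalent of 34 to 169 reads per library, the smallest numbers among the 10 genes. Its adjusted p crossed the threshold in 5 of 24 fits that left out a single library, with a range from 0.0291 to 0.143. These were the fits without old ZT2, ZT18 or ZT22 replicate 1 and without young ZT10 or ZT18 replicate 2. Without ZT6 at both ages the adjusted p was 0.242. With the replicate number as a block in the model it was 0.00765. The block was not part of the main model, since the replicate deviations did not correlate in every pair of groups. The log2 difference stayed between -0.77 and -0.56 in all alternatives run. Of 5 listed genes of lymphatic endothelium, the other vessel type with Lyve1, the chemokine Ccl21a averaged 0.134 scaled TPM in old and 0.0714 in young, and podoplanin (Pdpn) 0.273 in old and 0.213 in young. The other 3 were tested and none passed for age. Prox1, which hepatocytes also make, averaged 19.1 in old and 17.7 in young, Reln 6.63 in old and 6.00 in young, and Flt4, also a gene of sinusoidal endothelium, 4.29 in both. The summed level of the list ran from 22.03 to 50.6 in old libraries and from 17.0 to 43.4 in young libraries. Kupffer cell genes, markers of the resident macrophages, summed to 426 to 1111 scaled TPM in old libraries and 408 to 574 in young ones, and the part of either list in the Lyve1 difference was not tested.

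Stab1 and Stab2 encode large scavenger receptors of the sinusoid, which take up hyaluronan (Stab2) and modified lipoproteins, and lie on chromosome 14 (31139013 to 31168641) and chromosome 10 (86841198 to 87008025), both on the minus strand. Stab2 ran from 3.70 to 12.9 scaled TPM in old libraries (median 6.64) and from 3.34 to 14.5 in young libraries (median 8.58). Stab1 ran from 5.16 to 11.6 in old libraries (median 7.37) and from 4.53 to 15.3 in young libraries (median 6.60). The ages overlapped for both genes, and Stab2 had the largest coefficient of variation of the 10 genes at either age. Old minus young was -0.12 for Stab2 (95% confidence interval -0.59 to 0.35, limma adjusted p = 0.924) and 0.09 for Stab1 (-0.22 to 0.39, limma adjusted p = 0.912).

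By read coverage both genes spread less than by TPM. The deposited coverage gives read depth per base of a gene, whereas TPM also depends on the length of the transcripts to which reads were assigned. For Lyve1 and Bmp2 the ratio of coverage to FPKM (fragments per kilobase, scaled for depth) stayed at its library maximum in all 24 libraries. For Stab1 it ran from 21.9% to 70.1% of that maximum, and for Stab2 from 27.0% to 56.3%. Stab1 reached its highest level, 15.3 scaled TPM, in young ZT6 replicate 1 at a scaled coverage of 1.16, while young ZT10 replicate 1 had a scaled coverage of 1.64 and 9.18 scaled TPM. The coefficient of variation of Stab2 was 38.3% in old and 49.7% in young by TPM, against 19.5% in old and 31.9% in young by coverage. That of Stab1 was 22.1% in old and 39.8% in young by TPM, against 17.3% in old and 19.4% in young by coverage. Of the 13 Stab1 transcripts in GENCODE M21, 9 are annotated as retained introns.

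At single times Stab2 gave opposite age differences. At ZT2 it was at 11.4 and 12.9 scaled TPM in old, against 5.06 and 4.65 in young, a log2 difference of 1.24 (limma unadjusted p = 0.0378, adjusted p = 1). At ZT10 the young libraries were the higher, with 5.48 and 6.59 in old, against 14.4 and 14.5 in young, a log2 difference of -1.20 (limma unadjusted p = 0.0431, adjusted p = 0.602). Neither time passed the test. By scaled coverage the ZT2 values were 1.23 and 1.37 in old, against 0.981 and 0.905 in young, and the ZT10 values 0.961 and 1.28 in old, against 1.77 and 1.41 in young.

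Oit3, a gene of sinusoidal endothelium with a zona pellucida domain (chromosome 10, 59422958 to 59441778, minus strand), ran from 10.4 to 17.3 scaled TPM in old libraries (median 15.0) and from 12.01 to 19.5 in young libraries (median 15.7). Old minus young was -0.14 on the log2 scale (95% confidence interval -0.29 to 0.02, limma unadjusted p = 0.0764, adjusted p = 0.506). Oit3 was the 1 gene of the 10 whose 24 h rhythm passed the test on the mean of both ages, where 23.9% of all genes tested passed. Its fitted peak lay at ZT3.88, with a log2 difference between peak and trough of 0.46 (limma adjusted p = 0.0102). In old liver Oit3 was at 16.4 and 11.997 scaled TPM at ZT2, 15.8 and 16.5 at ZT6 and 17.3 and 17.0 at ZT22, against 10.4 and 12.7 at ZT14 and 12.4 and 12.4 at ZT18. In young liver it was at 19.3 and 17.3 at ZT2 and 18.5 and 19.5 at ZT6, against 12.01 and 14.8 at ZT14 and 12.3 and 14.1 at ZT18. The lowest means were at ZT14 and ZT18 at both ages, and the highest at ZT22 in old and at ZT6 in young.

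Within 1 age the rhythm of Oit3 missed the threshold, with a log2 peak-to-trough difference of 0.38 in old (limma adjusted p = 0.255) and 0.55 in young (adjusted p = 0.0533). The test of the difference between the ages gave an unadjusted p of 0.582 and an adjusted p of 1. The rhythm on the mean of both ages kept its call in all 24 fits that left out 1 library and by coverage (adjusted p = 0.0163). Without ZT6, ZT14 or ZT18 the adjusted p was 0.0942, 0.0929 and 0.0825.

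The other members gave no rhythm call. Within 1 age, 0 of 10 passed in old, against 8.96% of all genes tested, and 0 of 10 in young, against 10.7%. At an unadjusted p under 0.05, the counts were 1 of 10 in old (22.8% of all genes tested), 3 of 10 in young (25.1%) and 2 of 10 on the mean of both ages (35.4%). For the difference between ages 0 of 10 passed (0% of all genes tested), and 0 of 10 had an unadjusted p under 0.05 (3.51%). Clec4g peaked at a fitted ZT22.1 on the mean of both ages with a log2 peak-to-trough difference of 0.42 (limma unadjusted p = 0.0295, adjusted p = 0.0972). At ZT22 it stood at 122 and 91.9 scaled TPM in old and at 130 and 88.6 in young. The means of both ages ran from 75.1 at ZT10 to 108 at ZT22. The replicates of 1 time thus lay about as far apart as the times. Bmp2 in young liver peaked at a fitted ZT6.36, with a log2 difference of 0.51 (limma adjusted p = 0.129), and Stab2 in young liver at ZT10.5, with 1.38 (limma adjusted p = 0.108). The Stab2 value was 0.77 by coverage (limma adjusted p = 0.147).

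**Figure D2:**
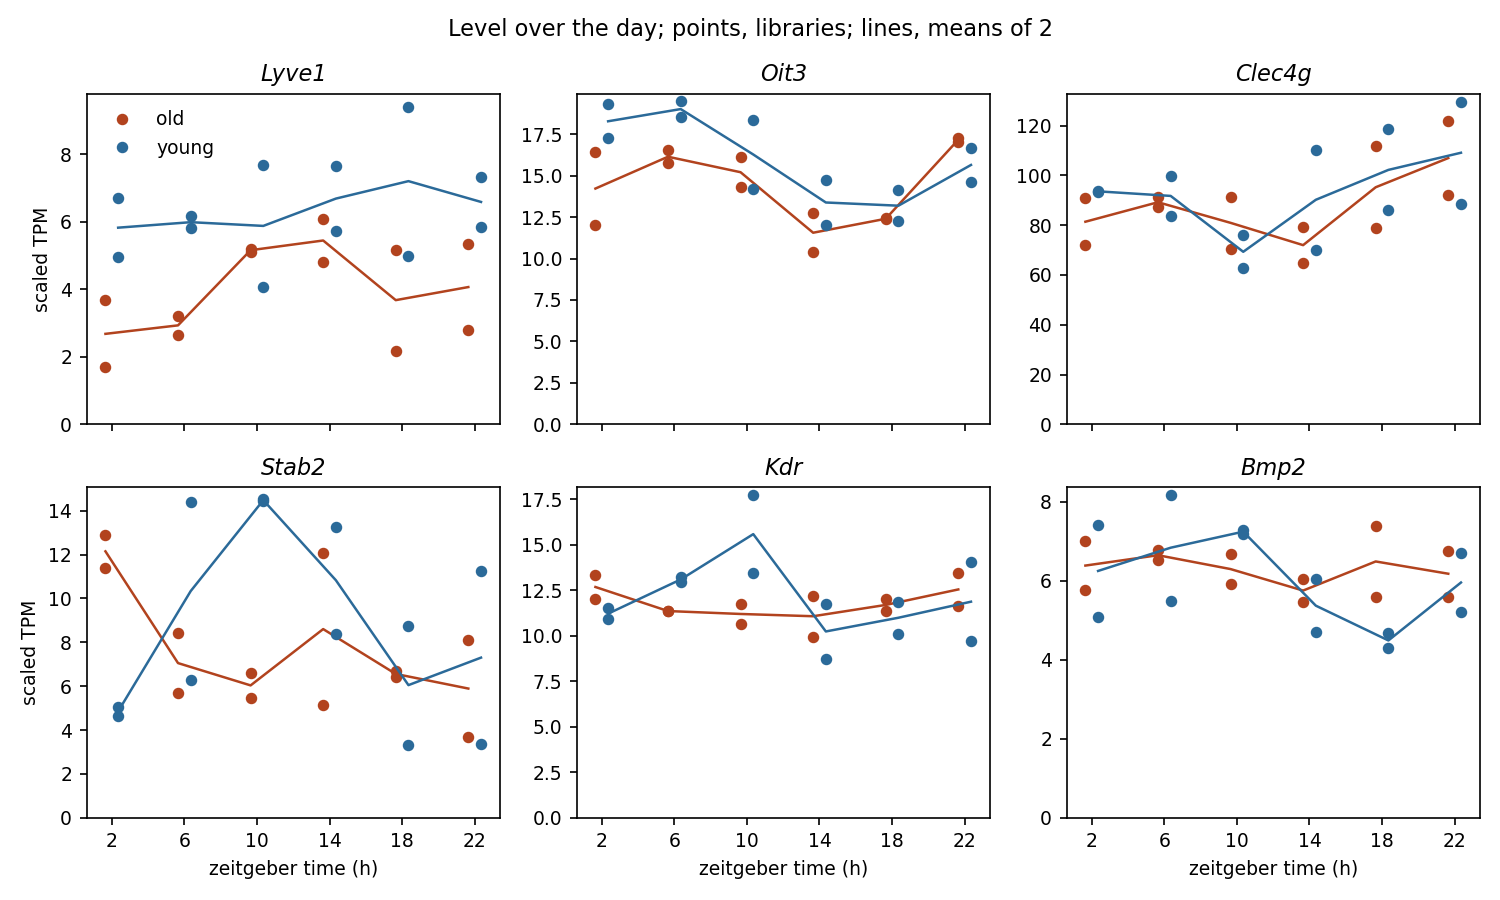
Scaled TPM of 6 genes at each zeitgeber time, with points for libraries and lines for the mean of 2, old drawn left of young at each time. Oit3 is low at ZT14 and ZT18 at both ages, the mean of Lyve1 is lower in old at all 6 times, with both old points below both young points at ZT2, ZT6 and ZT22, and Stab2 and Kdr are high in young at ZT10.

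Among the vascular receptors, Kdr encodes VEGF receptor 2, the main signalling receptor for VEGF-A (chromosome 5, 75932827 to 75978458, minus strand). It ran from 9.93 to 13.5 scaled TPM in old libraries (median 11.7) and from 8.73 to 17.7 in young libraries (median 11.8), so the young values were the wider. On the log2 scale the ages differed by -0.03 (95% confidence interval -0.20 to 0.14, limma adjusted p = 0.953). At ZT10 Kdr was at 10.6 and 11.8 in old, against 17.7 and 13.4 in young, a log2 difference of -0.45 (limma unadjusted p = 0.037, adjusted p = 0.570).

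Eng encodes endoglin, a co-receptor for BMP9 and BMP10 (chromosome 2, 32646595 to 32682669, plus strand), and ran from 12.8 to 19.9 scaled TPM in old libraries (median 18.5) and from 13.7 to 21.4 in young libraries (median 16.8). Pecam1 encodes the junction protein CD31 (chromosome 11, 106654217 to 106750628, minus strand), and ran from 9.48 to 15.0 in old libraries (median 10.9) and from 8.51 to 14.2 in young libraries (median 10.2). Both overlapped almost wholly between the ages. Old minus young was 0.02 for Eng (95% confidence interval -0.16 to 0.20, limma adjusted p = 0.973) and 0.11 for Pecam1 (-0.08 to 0.29, limma adjusted p = 0.747).

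Bmp2, the endothelial ligand that induces hepcidin in hepatocytes (chromosome 2, 133552159 to 133562885, plus strand), ran from 5.47 to 7.39 scaled TPM in old libraries (median 6.28) and from 4.31 to 8.18 in young libraries (median 5.76). The old values lay inside the young range. On the log2 scale old minus young was 0.08 (95% confidence interval -0.12 to 0.27, limma adjusted p = 0.857). At ZT18 Bmp2 was at 7.39 and 5.58 in old, against 4.67 and 4.31 in young (limma unadjusted p = 0.0511, adjusted p = 1).

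Over the 6 times and 10 genes, no single-time age difference passed the test. The shares of all genes tested that passed were 0% at ZT2, 0% at ZT6, 0.53% at ZT10, 0.0408% at ZT14, 0.0245% at ZT18 and 0.00816% at ZT22. No member passed the F test of whether its age difference varied over the times, against 0.0163% of all genes tested. In that test 0 of 10 had an unadjusted p under 0.05, against 3.6% of all genes tested. Stab2, with opposite differences at ZT2 and ZT10, gave a limma unadjusted p of 0.103, and 0.602 by coverage. With 2 libraries per group, a missed call does not show that the difference was the same at all times.

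**Figure D3:**
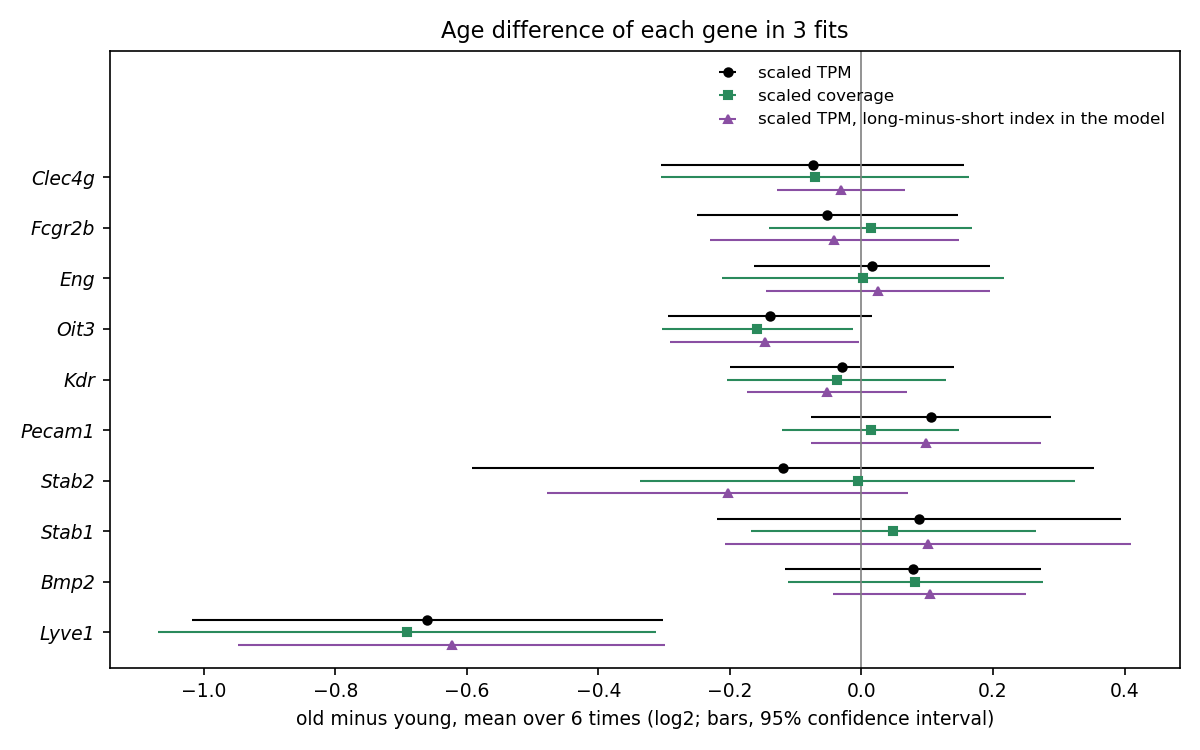
Old minus young of each gene over the day (log2) with its 95% confidence interval, from scaled TPM, from scaled coverage, and from scaled TPM with the long-minus-short index in the model. The interval of Lyve1 lies wholly below 0 in all 3 fits. That of Oit3 does so by coverage and with the index, with adjusted p-values of 0.341 and 0.264.

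By mean level over all 24 libraries, in TPM, which is per transcript length, the order was Clec4g (90.1), Fcgr2b (31.9), Eng (17.4), Oit3 (15.2), Kdr (11.96), Pecam1 (10.9), Stab2 (8.35), Stab1 (7.49), Bmp2 (6.16) and Lyve1 (5.18). Clec4g lay above Fcgr2b, and Fcgr2b above Eng, in 24 of 24 libraries. Stab2 lay above Stab1 in 12 of 24, so these neighbours did not differ in order. The lower end was close too, with Bmp2 above Lyve1 in 15 of 24.

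The members did not move as 1 group between replicate libraries. The deviations of each library from the mean of its age and time group were correlated over 24 libraries, which form 12 replicate pairs. By scaled coverage Stab1 and Stab2 correlated at 0.86, Stab1 and Kdr at 0.85, Stab2 and Kdr at 0.82 and Oit3 and Kdr at 0.81. Clec4g went against them, at -0.82 with Stab2, -0.80 with Kdr and -0.71 with Stab1, and instead followed Bmp2 (0.67) and Lyve1 (0.57). Of the 45 pairs of genes, 28 had a correlation above 0, with a median of 0.16. By TPM the correlation of Stab1 and Stab2 was -0.29, and that of Stab2 and Kdr 0.76. Stab1 by TPM correlated at 0.08 with Kdr and at 0.07 with Clec4g, while Clec4g was at -0.77 with Stab2 and -0.81 with Kdr.

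**Figure D4:**
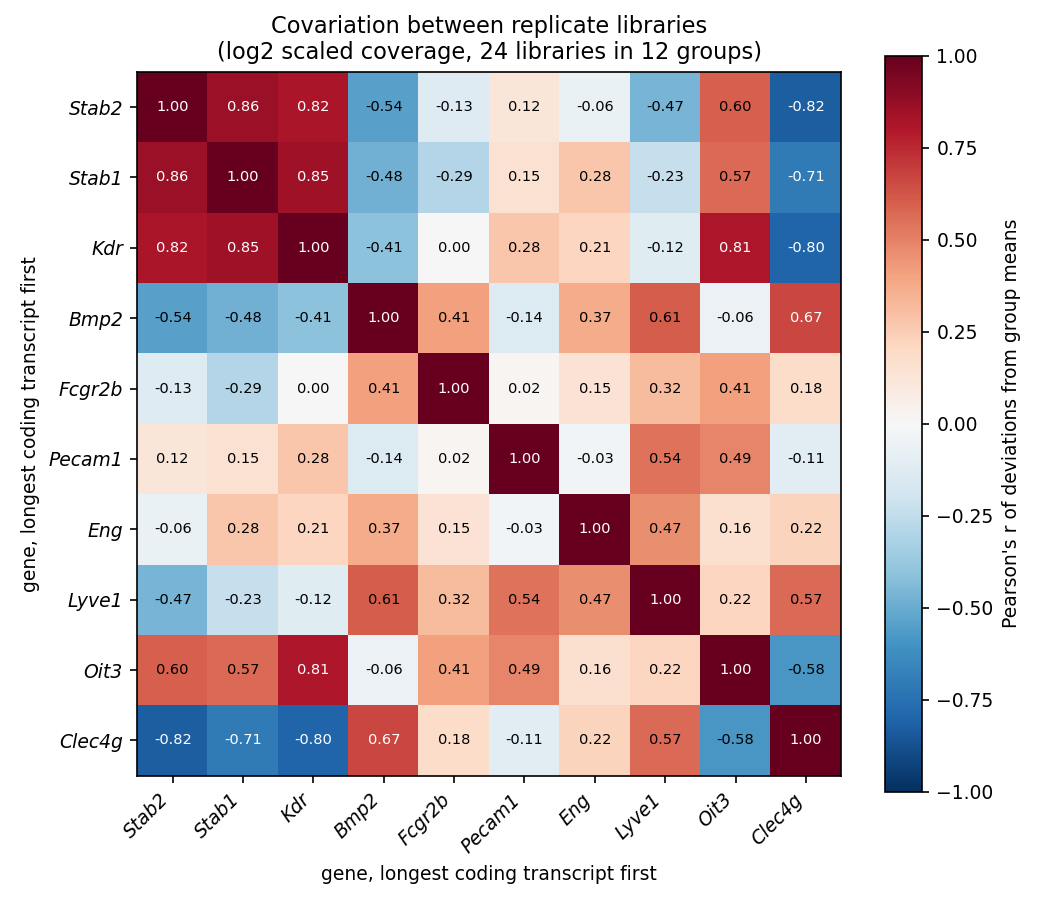
Pearson's r between the deviations of the genes from their group means (log2 scaled coverage, 24 libraries in 12 groups), ordered from the longest coding transcript to the shortest. Stab2, Stab1 and Kdr form a positive block at 0.82 to 0.86, and Clec4g stands against them at -0.82 to -0.71.

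Stab2, Stab1 and Kdr differ from Clec4g in transcript length, but length does not separate the 2 sides as a whole. The longest coding transcript has 8228 bases for Stab2, 7999 for Stab1 and 5924 for Kdr, against 1441 for Clec4g. That of Oit3, which followed Kdr, has 2717, fewer than those of Lyve1 (2893) and Bmp2 (3555), which followed Clec4g. To set a library-wide value beside this, the mean log2 scaled coverage of 648 non-member genes with transcripts of at least 6000 bases was taken minus that of 1386 genes with transcripts of at most 1500 bases. This long-minus-short index ran from -0.39 to 0.50 in old libraries (median 0.06) and from -0.75 to 0.62 in young libraries (median 0.11). It was higher in replicate 2 than in replicate 1 in 11 of 12 groups, the exception being young ZT10. Within groups it correlated with the coverage of Stab2 at 0.86, Kdr at 0.78, Stab1 at 0.68 and Oit3 at 0.57, and with that of Clec4g at -0.93, Bmp2 at -0.73 and Lyve1 at -0.50. With scaled TPM, the measure used in the main tests, Stab1 was at -0.23 and Oit3 at 0.31. Stab2 was at 0.84 by TPM, Kdr at 0.76, Clec4g at -0.94, Bmp2 at -0.73 and Lyve1 at -0.50. All points of these correlations share libraries and depth, and the part of the index in the single-time values above was not tested.

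**Figure D5:**
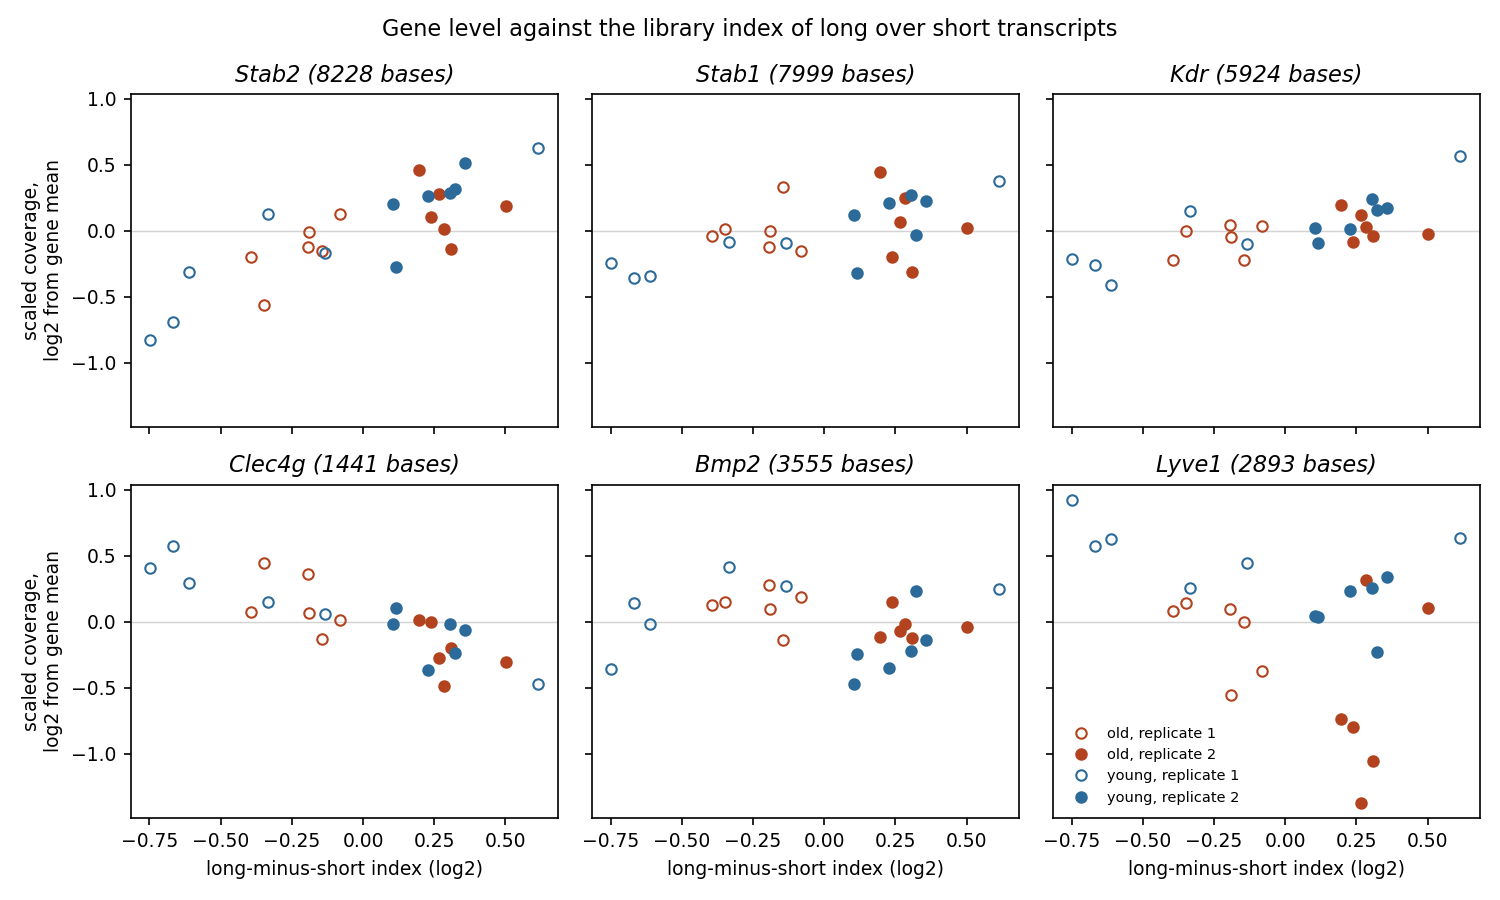
Scaled coverage of 6 genes (log2, from the gene's mean) against the long-minus-short index of the library, in old and young liver, with open circles for replicate 1 and filled ones for replicate 2. Stab2, Stab1 and Kdr are higher, and Clec4g and Bmp2 lower, in libraries with a high index, and young ZT10 replicate 1 lies at the far right at 0.62.

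With the index as a covariate in the model, the age difference of Clec4g was -0.03 on the log2 scale with a standard error of 0.05, against 0.11 without the index. For Lyve1 the log2 difference was -0.62 with a standard error of 0.15 and a limma adjusted p of 0.0347, under the threshold. In that fit 1 of the 10 genes passed the test of age, against 469 of all 12261 genes tested (201 without the index). Rhythm on the mean of both ages passed for 3 of 10, against 3779 of 12261 (2935 without the index). These 3 were Oit3 (limma adjusted p = 0.00771), Clec4g (0.0255) and Bmp2 (0.0428). Bmp2 also passed in young (limma adjusted p = 0.027), where 1715 of 12261 passed (1316 without the index).

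The starts of Stab1, Stab2 and Kdr, which by coverage varied together between libraries, and of Clec4g, which by coverage varied against them, are shown for their upstream bases. They come from RefSeq promoters on GRCm38.p6, which held 6 of the 10 genes (also Eng and Fcgr2b). Shown are the bases before the annotated gene, 5′ to 3′ on the gene's strand, at chr14:31168642-31168891 (Stab1), chr10:87008026-87008192 (Stab2), chr5:75978459-75978705 (Kdr) and chr8:3720652-3720901 (Clec4g), all on the minus strand. Capitals mark the core GGAAG of ETS family factors, which include regulators of endothelial genes, on either strand.
Stab1: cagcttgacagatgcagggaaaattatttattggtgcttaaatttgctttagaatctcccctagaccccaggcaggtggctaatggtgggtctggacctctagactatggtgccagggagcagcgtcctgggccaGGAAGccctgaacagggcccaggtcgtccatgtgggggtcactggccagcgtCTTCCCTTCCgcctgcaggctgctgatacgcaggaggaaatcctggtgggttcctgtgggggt
Stab2: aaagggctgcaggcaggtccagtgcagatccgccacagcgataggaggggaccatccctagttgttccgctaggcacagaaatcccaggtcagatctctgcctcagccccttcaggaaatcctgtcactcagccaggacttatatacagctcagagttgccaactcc
Kdr: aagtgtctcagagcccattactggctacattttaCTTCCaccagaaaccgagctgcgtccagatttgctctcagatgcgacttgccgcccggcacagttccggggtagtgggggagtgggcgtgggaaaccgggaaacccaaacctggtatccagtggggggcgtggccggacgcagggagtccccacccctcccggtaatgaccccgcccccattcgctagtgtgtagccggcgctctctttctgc
Clec4g: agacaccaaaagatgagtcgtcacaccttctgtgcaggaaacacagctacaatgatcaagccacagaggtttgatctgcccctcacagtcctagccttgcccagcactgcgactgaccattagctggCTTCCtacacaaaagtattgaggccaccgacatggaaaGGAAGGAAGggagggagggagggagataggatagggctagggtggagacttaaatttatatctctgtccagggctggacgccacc

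The letters GGAAG or their complement stood in the 250 bases upstream of the start of all 6 genes, 3 times in Stab1, 3 times in Clec4g, 2 times in Fcgr2b and in Eng, and 1 time each in Kdr and Stab2. In Clec4g 2 of the matches overlap by 1 base, and the match of Stab2 lies inside the annotated gene and outside the bases shown. The whole Fcgr2b window, with its 2 matches, also lies inside the annotated gene. Of 32851 RefSeq promoter windows of the same length, 64.1% hold it. For GATA factors, which include the sinusoidal regulator GATA4, only the letters GATAA or their complement were searched. They stood in 0 of the 6 windows, against 22.6% of all windows. Other forms of the GATA site were not searched, so this count does not show that the windows lack one. The E-box CACGTG, to which CLOCK and BMAL1 bind, stood in 0 of 6, against 6.02% of all windows. The absence of these letters in so short a window says nothing of binding elsewhere. A link between the letters and the covariation of the genes was not tested.

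Of 20 other genes of the sinusoidal endothelium, 17 were tested and 0 passed for age in either direction, against 1.14% of all genes tested that passed as higher and 0.498% as lower in old. Their median log2 difference was 0.05, with 12 above 0. The water channel Aqp1 averaged 68.1 ± 9.47 scaled TPM in old and 66.9 ± 9.10 in young, and the mannose receptor Mrc1 20.0 ± 4.15 in old and 19.5 ± 4.58 in young. Rhythms on the mean of both ages passed for 6 of 17, against 23.9% of all genes tested, with fitted peaks spread over the day. These were Ehd3, which shapes endocytic vesicles, at ZT22.9 (log2 peak-to-trough 0.60), the receptor Clec1b at ZT11.2 (0.64), Gpr182 at ZT19.8 (0.48), Flt4 at ZT8.05 (0.52), the transcription factor Gata4 at ZT21.2 (0.73) and Ntn4 at ZT4.21 (0.72). By coverage 5 of the 17 passed, against 3299 of all 12261 genes tested.

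Genes of endothelium in general were without an age call, with 0 of 21 tested passing, against 1.64% of all genes tested. Their median log2 difference was -0.01. The tetraspanin Tspan7 averaged 13.4 ± 3.47 scaled TPM in old and 17.3 ± 2.36 in young (limma adjusted p = 0.183), and the junction cadherin Cdh5 9.59 ± 1.63 in old and 8.86 ± 1.55 in young. Rhythm on the mean of both ages passed for 3 of 21, against 23.9% of all genes tested: S1pr1, the receptor for sphingosine 1-phosphate, at ZT21.1, Emcn at ZT21.7 and Sox18 at ZT22.0. Genes tied to capillarisation did not pass either, 0 of 8, against 1.64% of all genes tested. With so low a share, 0 of so few genes says little. Plvap, a protein of vessel diaphragms, averaged 17.0 ± 2.36 in old and 15.6 ± 2.06 in young, and Cd34 1.62 ± 0.494 in old and 1.18 ± 0.255 in young (limma adjusted p = 0.307). Rhythm on the mean of both ages passed for 2 of 8, again against 23.9% of all genes tested. These were collagens of the basement membrane, Col4a1 with a log2 peak-to-trough of 0.88 and Col4a2 with 1.40, both with a fitted peak near ZT5.4. Of 12 genes of larger vessels 4 were tested and 0 passed.

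In the VEGF pathway, where Kdr is a receptor, 1 of 9 tested genes rose in old liver, against 1.14% of all genes tested. The gene that rose was the co-receptor Nrp2, at 4.15 to 7.50 scaled TPM in old libraries and 2.14 to 4.88 in young libraries. Its means were 5.99 ± 1.29 in old and 3.20 ± 0.789 in young. Old minus young was 0.81 on the log2 scale (limma adjusted p = 0.00482), and 0.70 by coverage. The ligand Vegfa averaged 32.8 ± 6.28 in old and 33.7 ± 6.89 in young, and the receptor Flt1 2.10 ± 0.435 in old and 2.22 ± 0.405 in young. In the BMP and TGF-beta pathway, where Bmp2 is a ligand and Eng a co-receptor, 0 of 30 tested genes passed for age. Of all genes tested 1.64% passed. The median log2 difference of the 30 genes was 0.07, with 22 above 0. Hamp, which encodes hepcidin, averaged 3679 ± 1048 scaled TPM in old and 2618 ± 559 in young (log2 difference 0.45, limma adjusted p = 0.189). Hamp2 went the other way, at 109 ± 24.2 in old and 137 ± 25.4 in young (log2 difference -0.33, limma adjusted p = 0.167). The Bmp6 mean was 2.80 ± 0.504 in old and 2.42 ± 0.642 in young.

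Of all genes tested, 1.14% passed as higher in old liver. Of 15 genes of scavenging and endocytosis, 3 rose in old liver: the macrophage receptor Marco (28.5 scaled TPM in old, 6.24 in young), the fatty acid and lipoprotein receptor Cd36 (32.0 ± 7.55 in old, 21.6 ± 4.77 in young) and the lysosomal protease Lgmn (46.4 ± 11.8 in old, 36.2 ± 5.34 in young). Marco is a Kupffer cell gene, the 1 of 13 tested in that list that passed for age. Stab1, Stab2, Lyve1 and Fcgr2b, counted apart, gave none. Of the 4 tested genes of B and plasma cells, the immunoglobulin genes Ighm and Igkc and the J chain gene Jchain were higher in old, while the B cell receptor gene Cd79b gave a log2 difference of 0.08 (limma adjusted p = 0.953). The summed level of that list was 118 to 648 scaled TPM in old libraries, against 12.9 to 60.6 in young libraries. Of 3 tested neutrophil genes, S100a8 and S100a9 were higher in old, S100a8 without a call by coverage (limma adjusted p = 0.0557), and the list summed to 2.63 to 140.1 in old libraries, against 3.48 to 22.5 in young libraries. The 1 tested gene of T and NK cells did not pass. Their part in the values of the sinusoidal genes was not tested.

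Among genes other than the members, 7165 with at least 5 scaled TPM were compared by the Pearson's r of their replicate deviations with the mean of the 10 members over 24 libraries. Those most like it included Tsg101 (0.83), Pcolce (0.82), Pknox1 (0.79), Hist1h1c (0.76), Cyp4b1 (0.75), Scarb1 (0.75), Angptl2 (0.71), Tgfbi (0.71) and Tmem55a (0.71). None of these named genes is on the endothelial lists. The median r was 0.14 for the 38 endothelial list genes compared and -0.03 for all genes.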

How the data were processed

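Liver mRNA was measured in 24 libraries, 12 per age. Per the labels' protocols, livers were flash frozen, oligo-dT captured the mRNA, and single 50-base reads kept the strand. Per the submitters' processing notes, HISAT2 and StringTie were used on GRCm38. Versions and annotation are not given in the sources used here. The deposited coverage (a signal, mean read depth per base) is not scaled for depth. The deposited FPKM values are scaled for depth and transcript length, and the deposited TPM values by the authors sum to 1000000 per library. No read counts were used, so counting error is not known, and reads were derived from coverage, exon length and 50 bases.

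Repeated entries of an identifier were added up. Median-of-ratios factors from the 13270 genes above 0 in all libraries brought TPM to a common scale, and these scaled TPM are printed. The 12261 genes whose mean reached 1 TPM were fitted as log2(scaled TPM + 0.5) with limma 3.58.1 in R 4.3.3 (empirical Bayes with trend). The pseudocount makes differences of low genes too small. A model of 12 age and time groups gave age differences, and a 24 h cosine and sine per age gave rhythms. Adjusted p-values are Benjamini-Hochberg over all genes tested, with a threshold of 0.05. Coverage was scaled by its own factors and fitted as log2(coverage + 0.1).

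Alternatives were unscaled TPM and FPKM, quantile normalization, pseudocounts of 0.1 and 1, no filter or a filter at 5 TPM, a replicate block, another rhythm test, and fits without single libraries, single times or the 2 libraries that stood apart. Coverage and the long-minus-short index were added after seeing the data. All 10 members were named, with list genes past a test, or up to 4 per list by level, and for likeness the 10 with the highest r, of which 1 is not reported here. Some genes outside that rule were chosen after their values were seen (Cdh5, Cd34, Flt1, Bmp6, Ccl21a, Pdpn, Fcgr1 and Cd79b). The members and the 21 other lists were chosen with earlier results of these data known. The fits were tested on simulated data first. Tables and plots were made in Python 3.11.15 with matplotlib 3.10.9, numpy 2.4.6 and pandas 2.3.3.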

Additional observations from a re-analysis of the deposited data

How the results depend on the processing

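The number of members called moved with the settings only by a few genes, out of 10. For age over the day it was 0, and 1 (Lyve1) with the replicate number as a block (adjusted p = 0.00765) or the long-minus-short index as a covariate, and 0 to 1 leaving out single libraries. For rhythm in old it was 0, and 0 to 1 leaving out single libraries. For rhythm in young it was 0, and 1 with unscaled TPM, with FPKM, with the filter at 5 TPM, with the index, and without the 2 libraries that stood apart (by TPM or coverage), 2 without ZT22, 3 with the replicate block (Stab2, Oit3 and Bmp2), and 0 to 2 leaving out single libraries. For rhythm on the mean of both ages it was 1, and 2 with unscaled TPM or the replicate block, 3 with the index, 0 without ZT6, ZT14 or ZT18, and 1 to 2 leaving out single libraries. Over all 12261 genes the rhythm calls moved with the settings too. In young they were 1316, and 958 with unscaled TPM, 1243 without ZT22, 1715 with the index and 1952 with the block. On the mean of both ages they were 2935, and 2772 with unscaled TPM, 3685 with the block and 3779 with the index. Without ZT6, ZT14 or ZT18 they were 1941, 2090 and 2235. The cause was not tested.

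Uncalled age differences near 0 changed sign. Stab2 was at 0.0835 without the 2 libraries, 0.10 without ZT10 and 0.0939 by coverage without the 2 libraries, and -0.25 to 0.02 leaving out single libraries. Clec4g was at 0.0363 by unscaled TPM. Fcgr2b was at 0.0573 by unscaled TPM, 0.0159 by FPKM, 0.01 without the 2 libraries, 0.0066 without ZT14, 0.0139 by coverage, 0.0712 by coverage without the 2 libraries, and -0.13 to 0.0226 leaving out single libraries. Kdr was at 0.0761 by unscaled TPM, 0.035 by FPKM, 0.01 without the 2 libraries, 0.0041 without ZT6, 0.0544 without ZT10, 0.0034 by coverage without the 2 libraries, and -0.0719 to 0.0131 leaving out single libraries. Bmp2 was at -0.0014 without ZT18. Eng was at -0.0304 without ZT14, -0.0068 without ZT22, -0.0112 by coverage without the 2 libraries, and -0.0282 to 0.0600 leaving out single libraries.

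Over all genes, the age calls were 140 higher and 61 lower in old, 225 and 38 by unscaled TPM, 220 and 133 with the block, and 269 and 200 with the index. By unscaled TPM the median log2 difference of all genes was 0.09, against -0.01 with scaling. Of 66 pairs of groups, 52 had replicate deviations with a correlation over 0.1, which is not every pair, so the replicate numbers were not taken as pairing the libraries. 22 of 24 libraries were closer to their own number, and young ZT10 was in 11 of the 14 other pairs.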
